A study of Mus musculus with 6 samples.

Results

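Divergent coding promoters are intervals between the starts of a pair of protein-coding genes that lie on opposite strands and are transcribed away from each other. Members were found in the GENCODE vM21 annotation of the mouse genome as pairs whose gene starts lay at most 1 kb apart without crossing, where the start of a gene is its outermost annotated 5′ end. The rule gave 750 pairs with 1482 genes, which is 6.76% of the 21911 coding genes. Counting each pair as 1 promoter, they were 750 of 21179 coding promoters. The starts of a pair were 1 to 987 bp apart, with a median of 130 bp and quartiles of 67 and 240 bp, and 614 pairs were at most 300 bp apart. A gene was shared between pairs in 36 of the pairs. There were 20 pairs on the X chromosome and 0 on the Y chromosome. The rule itself uses the annotation and no peak, but pairs of this kind were taken up with earlier results of these data known.

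H3K4me3 ChIP-Seq had been performed on STHdh cells, striatal progenitor cells of mouse labelled as strain C57BL/6, with 1 peak list for each of 6 conditions. Q7SST cells were labelled wild type (STHdh7) and Q111SST cells mutant (STHdhQ111), a Huntington's disease model whose huntingtin gene carries an expanded polyglutamine tract, and both were kept without serum for 24 hours with vehicle control. Mutant cells under the same starvation for 24 hours received 10 uM cyproheptadine, 10 uM loxapine, 10 uM diacylglycerol kinase inhibitor II (DKI) or 10 uM meclizine, and values given for the 6 lists in order follow Q7SST, Q111SST, cyproheptadine, loxapine, DKI and meclizine. Each genotype was 1 cell line, so a difference between Q7SST and Q111SST cannot be told apart from a difference between lines, and with 1 list per condition no test between conditions was made.

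H3K4me3, trimethylation of lysine 4 of histone H3, marks the nucleosomes around the starts of active genes and of many genes held ready for activation. At an active promoter the mark is usually strongest on the first nucleosomes downstream of the start, while the start itself lies in a stretch depleted of nucleosomes. In a divergent coding pair such a stretch can serve the start of either gene, with each first nucleosome lying in its own gene. Such pairs are known to be common among housekeeping genes, including those of DNA repair and mitochondria, and to lie mostly in CpG islands with few TATA boxes.

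The intervals of 6 pairs are shown because they represent the arrangements described here, and they were read from the plus strand of GRCm38, so that the gene named first starts at the left end and is transcribed to the left. Capitals mark matches to the 9 motifs searched, on either strand. Mrps12/Sars2 (chr7:28741821-28741991) carried 1 peak over both starts in all 6 lists, and its capitals are the CCAAT box and the GC box. Mepce/Zcwpw1 (chr5:137787656-137787797) carried a peak over the first start only, and its capitals are a YY1 motif. Polk/Col4a3bp (chr13:96542580-96542617) had peaks on both sides but none over the interval in all 6 lists, and Smim14/Ube2k (chr5:65537185-65537232) had that arrangement in 5 lists. Col4a4/Col4a3 (chr1:82586850-82586920) had a peak in 1 list, and Best1/Rab3il1 (chr19:10001634-10001668) in none. The last 4 held no match.
Mrps12/Sars2: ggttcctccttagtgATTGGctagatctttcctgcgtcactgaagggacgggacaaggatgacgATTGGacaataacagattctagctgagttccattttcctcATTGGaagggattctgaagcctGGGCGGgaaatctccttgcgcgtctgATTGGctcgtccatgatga
Mepce/Zcwpw1: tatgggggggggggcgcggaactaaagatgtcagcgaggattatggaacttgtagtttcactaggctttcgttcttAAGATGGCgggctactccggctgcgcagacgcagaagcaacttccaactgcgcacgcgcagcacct
Polk/Col4a3bp: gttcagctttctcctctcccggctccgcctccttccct
Smim14/Ube2k: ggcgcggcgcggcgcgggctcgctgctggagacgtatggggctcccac
Col4a4/Col4a3: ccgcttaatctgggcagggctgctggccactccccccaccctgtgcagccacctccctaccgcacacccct
Best1/Rab3il1: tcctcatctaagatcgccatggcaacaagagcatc

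The 6 lists held 30758 to 45564 peaks and their lowest score was 10 in each. The number of reads behind a list is not known from these files, and a promoter without a peak is one where none was listed, not one shown to lack the mark. Of 11 markers of striatal and neural progenitors, 3 (Vim, Dlx2 and Fabp7) had a peak within 1 kb of the gene start in all 6 lists and 3 (Pax6, Notch1 and Msi1) in none, which is 27.3% each. Of all 21911 coding genes 49.2% had one in all 6 lists and 41.2% in none. Of 12 markers of other cell types, 11 (91.7%) had a peak in none and Dazl had one in 3 lists.

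Most divergent coding promoters carried the mark in every condition. A peak lay over the interval at 667 pairs in Q7SST, which is 88.9%, and at 668 pairs in Q111SST, which is 89.1%. The compound lists in order had 618, 631, 645 and 675 marked pairs, so that the share ran from 82.4% (95% Wilson interval 79.5% to 85.0%) with cyproheptadine to 90% (87.6% to 91.95%) with meclizine. The other coding promoters were measured over the start and the 130 bp upstream of it, the median spacing of the pairs. They carried a peak in 43.4%, 42.1%, 35.9%, 39.3%, 38.4% and 43.0% of cases in the 6 lists in order. Intervals throughout cover counting error only, and neighbouring promoters are not independent.

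**Figure D1:**
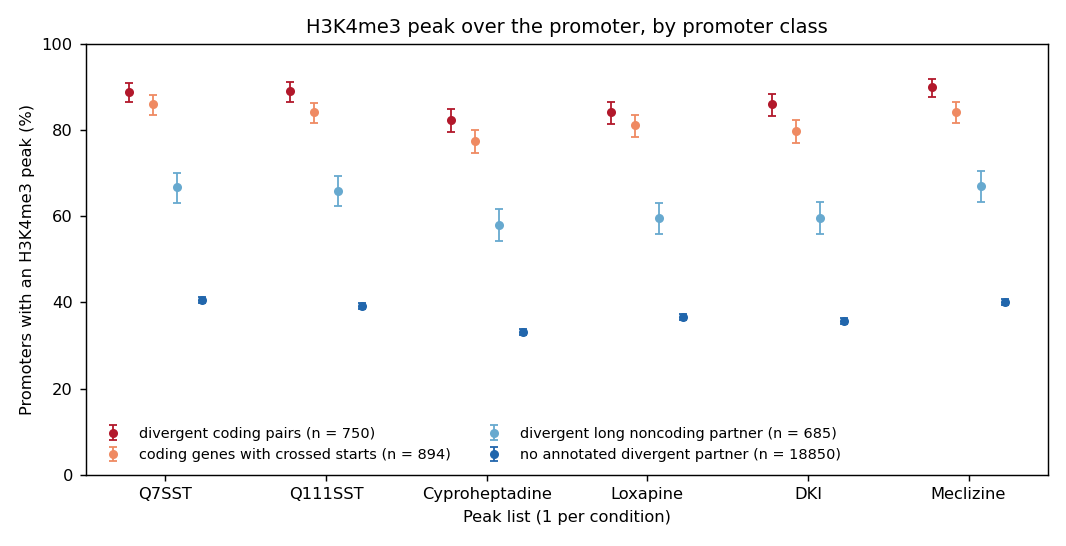
Share of promoters with an H3K4me3 peak (%) in each of the 6 peak lists, for 4 classes of coding promoter, with bars for 95% Wilson intervals. Divergent pairs lie between 82.4% and 90%, promoters with no annotated divergent partner between 33.1% and 40.5%.

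In all 6 lists, 598 pairs were marked, which is 79.7% (76.7% to 82.5%), against 6650 of the 20429 other coding promoters, which is 32.6% (31.9% to 33.2%). A pair could be marked by a peak over either of its starts, while each other promoter was measured at a single start, and this was not matched. In no list was a peak found at 61 pairs, which is 8.13%, against 51.8% of the others. The other promoters fell into classes by their neighbours. Coding genes whose starts faced away but crossed each other were marked in all 6 lists in 74.8% of 894 cases, starts with a divergent long noncoding RNA within 1 kb in 51.7% of 685, and starts with no annotated divergent partner in 29.9% of 18850.

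Sequence content moved with this difference. The ratio of observed to expected CpG over 500 bp had a median of 0.833 at pairs (95% order interval 0.817 to 0.846) and 0.515 at other coding promoters (0.504 to 0.525). Among other promoters with a ratio at least as high as the median of the pairs, 58.5% (57% to 60%) were marked in all 6 lists. That lay between the 32.6% of all other promoters and the 79.7% of pairs, and other features that separate these classes were not matched.

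Where a peak lay over the promoter, its median strength and width were higher at pairs than over all other coding promoters in each list. Strength is given as the percentile of the peak's score among all peaks of its own list. In Q111SST the median percentile was 85.4 at pairs (84.3 to 86.2) and 82.9 at other promoters (82.3 to 83.2). The medians were closest in Q111SST and, at 85.2 and 82.7, with loxapine, and furthest apart with DKI, at 81.3 and 75.8. The median width in Q111SST was 2206 bp at pairs (2152 to 2242 bp) and 1831 bp at others (1815 to 1847 bp). With DKI both were narrowest, at 1797 and 1516 bp. The width was not particular to pairs, since at coding genes with crossed starts it was 1982 bp beside 1981.5 bp at pairs with cyproheptadine, and 1801 beside 1797 bp with DKI. In strength, crossed starts had a median percentile of 84.32 (83.19 to 85.4) in Q111SST, an interval that overlapped that of the pairs. With meclizine it was 81.54 (80.65 to 82.44) at crossed starts and 83.83 (83 to 84.97) at pairs, without overlap. The difference in median percentile in Q111SST was 2.51 (1.13 to 3.9), but against CpG-rich promoters it was 1.7 with an interval that reached 0 (0 to 3.31), and with the stricter score threshold of 47 it was 2.13 with an interval that crossed 0 (-0.64 to 5.16).

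A single peak usually spanned both starts. Of the marked pairs, 1 peak covered both starts in 636 of 667 in Q7SST, 632 of 668 in Q111SST, and 577 of 618, 591 of 631, 594 of 645 and 639 of 675 in the compound lists in order. These shares ran from 92.1% to 95.4%. A peak over 1 start with none over the other was seen at 30 to 48 pairs per list, and a separate peak over each start at 0 pairs in any list. The lists hold no adjacent peaks closer than 773 to 813 bp, a distance 4 to 4.01 times the narrowest peak of the same list, and a shorter break between 2 peaks is found nowhere in them.

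Spanning fell with distance between the starts. In Q111SST a peak over both starts was found at 99.3% of marked pairs with starts up to 100 bp apart, 98.1% at over 100 and up to 300 bp, and 74.6% (65.9% to 81.7%) at over 300 bp. The share of pairs marked at all was 93.2%, 87.2% and 83.8% in the same classes. Both shares were lowest at over 300 bp in each of the other lists too, but in all 6 lists the interval of the share marked at over 300 bp overlapped that of the middle class.

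The reach of peaks into genes was measured where a peak covered the start, and for pairs only where 1 peak covered both starts, which leaves out pairs with a peak over 1 start. In Q111SST the peak reached a median of 1016 bp (990 to 1037 bp) downstream of each of the 1264 starts of such pairs, and 1243 bp (1226 to 1258 bp) downstream of the start at other promoters. The median was shorter at pairs in all 6 lists, from 822 against 994 bp with DKI to 1018 against 1195 bp with loxapine. At other promoters the upstream reach was 526 bp in Q111SST, 498 bp where there was no annotated partner and 727.5 bp where there was a divergent long noncoding RNA. Within a pair in Q111SST, the longer of the reaches had a median of 1250.5 bp and the shorter 817 bp.

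**Figure D2:**
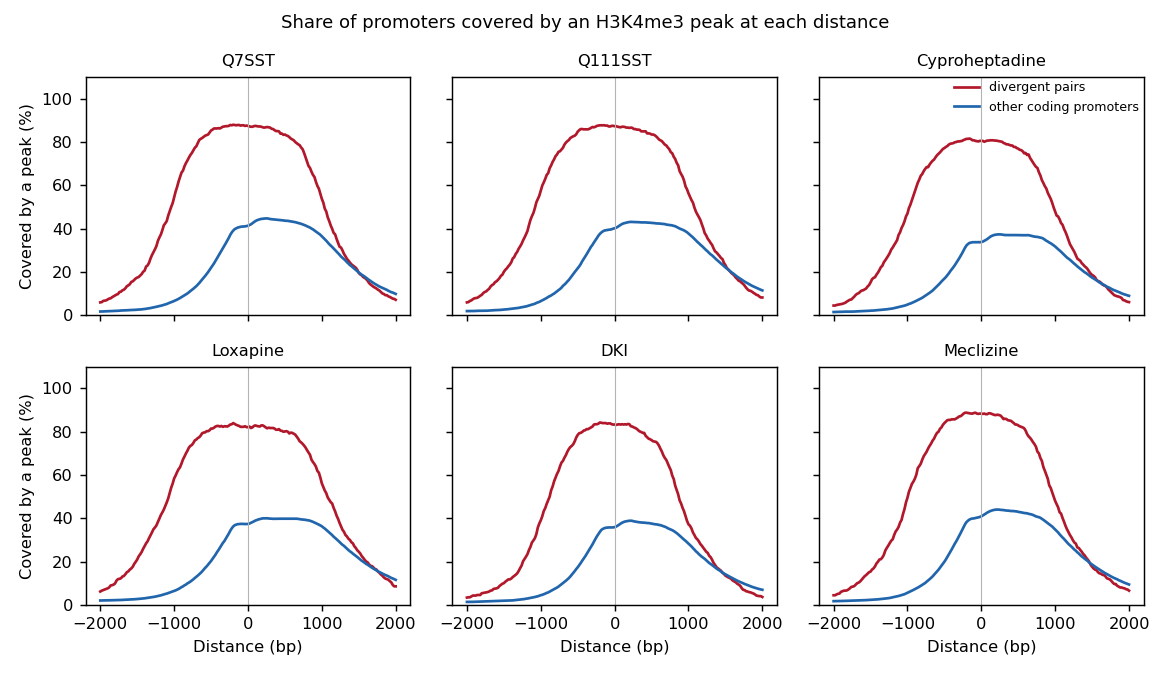
Share of promoters (%) covered by an H3K4me3 peak at each distance (bp) from the midpoint of the interval, for 750 divergent pairs in genome orientation and for 20429 other coding promoters with transcription to the right, in the 6 lists. At 500 bp in Q111SST the pairs have 84.8% on the left and 83.5% on the right, the other promoters 21.6% upstream and 42.6% downstream.

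The 5 pairs with the strongest peaks by mean percentile over the 6 lists were Mdh1b/Fastkd2, Mad1l1/Nudt1, Mepce/Zcwpw1, Hjurp/Trpm8 and Tmem209/Ssmem1. Fastkd2 encodes a mitochondrial RNA-binding protein, Mad1l1 a spindle checkpoint protein, Nudt1 an enzyme that clears oxidised nucleotides and Hjurp the chaperone of the centromeric histone. At Mdh1b/Fastkd2 the percentile was 99.45, 99.64, 98.63, 99.63, 98.90 and 99.59 in the 6 lists in order, so it was high throughout. Its peak was narrow beside the median of pairs, at 1140 to 1399 bp. Trpm8, a cold-sensing ion channel, shared its peak with Hjurp, with starts 28 bp apart and a percentile of 98.20 to 99.72.

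The widest peaks were at other pairs, with lower scores. Cep57l1/Sesn1, whose second gene encodes a stress-induced sestrin, had peaks of 3865 to 4450 bp at percentiles of 69.52 to 73.18. Prr11/Ska2, with a kinetochore subunit, had 3633 to 4241 bp. Kctd10/Ube3b, with a ubiquitin ligase, had 3567 to 3983 bp. Wrap53/Trp53, which pairs a telomerase maturation factor with the tumour suppressor p53, had 3281 to 4128 bp at 71.51 to 79.03. None of the 5 widest was among the 5 strongest.

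At 17 of the 750 pairs a peak covered 1 start and not the other in all 6 lists. At Mepce/Zcwpw1 the covered start was that of Mepce, which caps 7SK RNA, and the uncovered one that of Zcwpw1, a histone reader of meiotic cells, 143 bp away. The percentile there was 99.12, 99.49, 99.40, 99.39, 99.81 and 98.14 in the 6 lists in order. At Cryzl1/Itsn1 the start of Cryzl1 was covered and that of Itsn1, an endocytic scaffold, was not, at percentiles of 97.57 to 99.58. The deacetylase Sirt6 was covered and Ankrd24 was not, at 94.54 to 98.77. Haghl was covered and Ccdc78 was not, at 87.54 to 98.25. At Actn3/Zdhhc24 the palmitoyltransferase gene Zdhhc24 was covered and Actn3, the alpha-actinin of fast muscle fibres, was not, at 83.11 to 95.35. The starts were 306 bp apart at Cryzl1/Itsn1, 743 bp at Sirt6/Ankrd24, 907 bp at Haghl/Ccdc78 and 759 bp at Actn3/Zdhhc24. These distances are in the class over 300 bp, where spanning was least frequent.

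The textbook examples of divergent pairs were partly outside the rule. Of 17 such pairs, 7 were members, 8 had crossed starts and 2 had starts over 1 kb apart. Brca1/Nbr1, a homologous recombination gene beside an autophagy receptor, carried 1 peak over both starts in all 6 lists, with percentiles of 95.35, 89.60, 89.21, 89.19, 96.85 and 95.11. Mcm4/Prkdc, the helicase subunit beside the DNA-dependent protein kinase, did so at 79.57 to 86.01, and Pdcd10/Serpini1 at 73.56 to 84.14. Mrps12/Sars2, a mitochondrial ribosomal protein beside the mitochondrial seryl-tRNA synthetase, did so at 91.49 to 98.09. Gart/Son had 1 peak over both starts in 4 lists and over the start of Gart alone with cyproheptadine and loxapine.

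Col4a4/Col4a3, which encodes chains of basement membrane collagen, stood apart from the other textbook members. It had a peak of score 30 in Q7SST, at percentile 26.81 and 789 bp wide, and none within 1 kb in the other 5 lists. The remaining member, Atm/Npat, is described with the breaks over the interval.

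At some pairs the peaks flanked the interval and left it bare. A gap was counted where no peak overlapped the interval and peaks lay within 1 kb beyond both starts, a definition made after the lists had been examined. Gaps numbered 35, 30, 58, 56, 40 and 22 in the 6 lists in order, with the most in the cyproheptadine and loxapine lists and the fewest in that of meclizine. The median break between the flanking peaks was 932 to 989 bp, and the least distance between any adjacent peaks of a list, at pairs or elsewhere, was 773 to 813 bp. In Q111SST the stronger flanking peak had a median percentile of 85.2 and the weaker one 69.1.

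**Figure D3:**
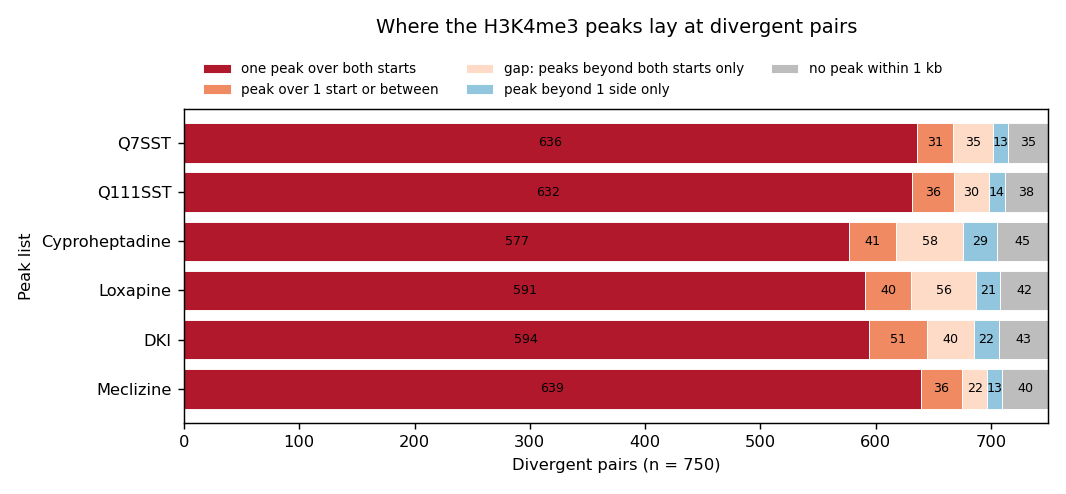
Number of the 750 divergent pairs in each arrangement of H3K4me3 peaks, 1 bar per list. Pairs with 1 peak over both starts number 577 to 639, and gaps number 58 with cyproheptadine and 56 with loxapine against 30 in Q111SST.

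As a share of all pairs gaps were 2.93% to 7.73%, against 1.55% to 2.87% of other promoters, which carry peaks less often. As a share of promoters with either a peak over them or a gap, the intervals at pairs and at other promoters overlapped in all 6 lists. These shares were 4.30% at pairs (3.03% to 6.07%) and 4.45% at others (4.04% to 4.89%) in Q111SST, and 3.16% and 3.48% with meclizine. With cyproheptadine they were 8.58% (6.70% to 10.9%) and 6.79% (6.25% to 7.36%). Promoters with a divergent long noncoding RNA had the highest share in each list, 6.52% to 13.9%. Pairs with a gap were richer in CpG, with a median ratio of 0.942 in Q111SST against 0.84 at pairs with a peak over the interval.

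Many gaps were shared between lists. There were 15 pairs with a gap in all 6 lists, 2% (1.22% to 3.27%), beside 144 or 0.705% of the other promoters, which carry peaks less often. Of the promoters with a gap in at least 1 list, these were 15 of 78 pairs, or 19.2% (12% to 29.3%), and 144 of 893 others, or 16.1% (13.9% to 18.7%), with overlapping intervals. The gaps with cyproheptadine and with loxapine had 44 pairs in common, which is 75.9% of the first and 78.6% of the second. Q111SST and meclizine had 19 in common, 63.3% and 86.4%. Such overlaps between lists were counted at pairs only, and they depend on how many gaps each list holds. Of the 58 gaps with cyproheptadine, 31 were at pairs with a peak over the interval in Q111SST and 27 at pairs with a gap there too, and of the 56 with loxapine 29 and 27.

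Polk/Col4a3bp, the genes of a translesion DNA polymerase and of the ceramide transfer protein, had a gap in every list. The break measured 994, 1001, 1086, 1085, 1085 and 994 bp in the 6 lists in order. It was not centred on the starts, since the left peak ended 81 to 113 bp from the start of Polk and the right peak began 856 to 936 bp inside Col4a3bp. At Baz2b/March7 the break was 879 to 975 bp, between a left peak at percentiles of 95.72 to 99.19 and a right peak at 59.09 to 72.78. At Ccni/2010109A12Rik, whose first gene encodes cyclin I, it was 929 to 1026 bp and lay mostly on the side of Ccni, whose peak began 847 to 926 bp into the gene. Among the others with a gap in all 6 lists, named after their values were seen, were Atp6v1a/Naa50, Gen1/Smc6, Nfya/Oard1 and Mzt1/Bora.

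Atm/Npat, the gene of the DNA damage kinase beside the histone gene activator, had a gap in 5 lists and 1 peak over both starts in the sixth. The break measured 838, 903, 1009, 1008 and 937 bp in the first 5 lists in order. With meclizine a single peak of 3143 bp at percentile 84.71 covered the interval. The flanking peaks in the other lists were present at percentiles of 76.49 to 85.35 on the side of Atm and 59.09 to 79.73 on the side of Npat.

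**Figure D4:**
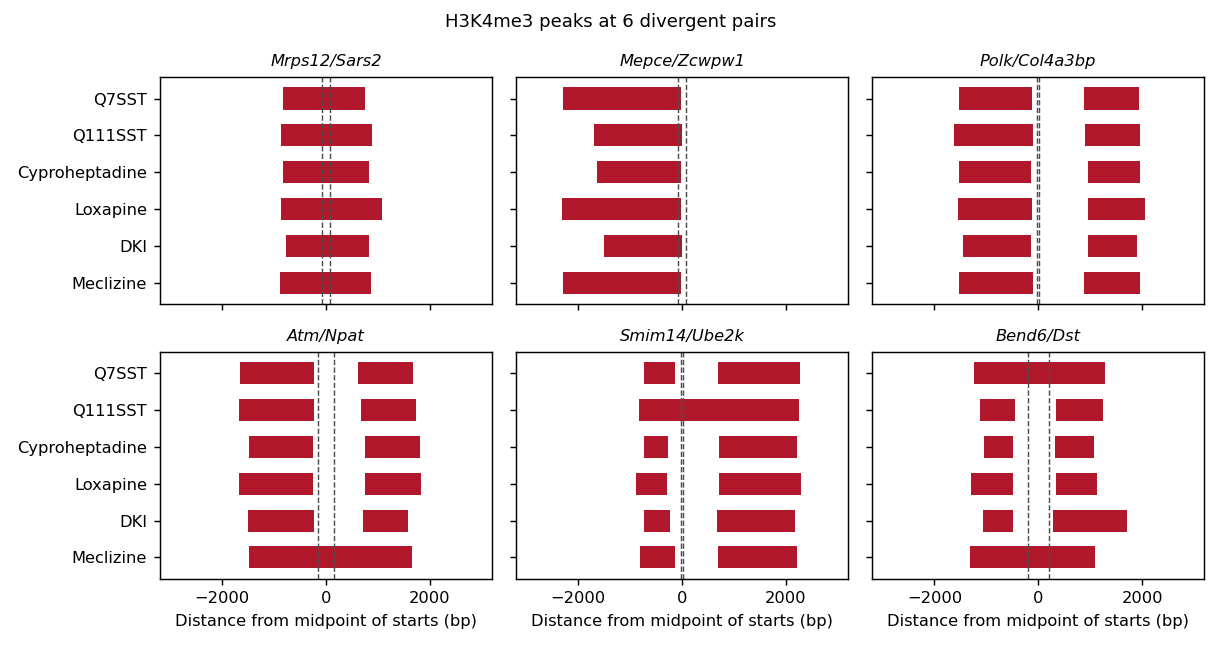
H3K4me3 peaks (bars) at 6 divergent pairs in each list, against distance (bp) from the midpoint of the starts, with dashed lines at the starts. Mrps12/Sars2 has 1 peak over both starts in all 6 lists, Mepce/Zcwpw1 a peak over the left start only, and Polk/Col4a3bp a break in all 6, while Atm/Npat, Smim14/Ube2k and Bend6/Dst have a break in some lists.

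Between the vehicle lists few pairs differed. Of the 668 pairs with a peak in Q111SST, 14 had none in Q7SST, which is 2.1% (1.25% to 3.49%), beside 6.8% of all coding promoters. Of the 82 without a peak in Q111SST, 13 had one in Q7SST, which is 15.9% (9.51% to 25.3%), beside 7.56%. At 9 of the 14 and 5 of the 13 the list without a peak over the interval had a gap there, with the mark on both sides, which is 64.3% and 38.5%. At other promoters the shares were 11.7% of losses and 9.12% of gains.

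Pairs with a peak in Q7SST and not in Q111SST included Bend6/Dst, with the cytoskeletal linker dystonin, at percentile 84.10 and width 2517 bp in Q7SST. In Q111SST it had a break of 792 bp, and with cyproheptadine, loxapine and DKI breaks of 808, 835 and 773 bp. With meclizine a peak of 2407 bp at percentile 79.78 covered the interval. The same lists held gaps at Myl12b/Myom1, with breaks of 865 to 950 bp, and at Senp8/Myo9a, with breaks of 786 to 825 bp, and both had a covering peak in Q7SST and meclizine. B3galt6/Sdf4 had a covering peak in Q7SST, loxapine and meclizine, and Sox6/1110004F10Rik, with a transcription factor of the SoxD group, only in Q7SST, at percentile 73.43.

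In the other direction, Smim14/Ube2k, with a ubiquitin-conjugating enzyme, had a covering peak of 3082 bp at percentile 95.04 in Q111SST. In Q7SST its break was 832 bp, and with cyproheptadine, loxapine, DKI and meclizine 986, 1005, 916 and 839 bp. The right flanking peak, in Ube2k, was at percentiles of 93.88 to 98.90 in those lists, and the left one at 61.36 to 83.29. Wrn/Purg, with the helicase mutated in Werner syndrome, had a peak over the start of Wrn alone in Q111SST, at 94.48, and breaks of 849 to 954 bp in the other lists. At Mms19/Ubtd1, with an iron-sulphur assembly protein, Q111SST had a peak at 95.44 and Q7SST a break of 1345 bp. Pip4p1/Pnp, with purine nucleoside phosphorylase, had a peak at 82.89 in Q111SST and a break of 897 bp in Q7SST. Dram1/Gnptab, with a p53-induced autophagy gene, had a peak at 85.65 and in Q7SST a peak on 1 side only. No list has a break below 773 to 813 bp. The breaks of 773 to 835 bp at Bend6/Dst lie near that limit, while those at Smim14/Ube2k ran from 832 to 1005 bp. Whether the enrichment between the starts differed was not tested.

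Against Q111SST, all 4 compound lists had fewer missing peaks at pairs than over all coding promoters. With cyproheptadine 50 of the 668 pairs had no peak over the interval, which is 7.49% (5.72% to 9.73%), beside 15.4% of all coding promoters. With loxapine 40 pairs had none, 5.99% beside 9.47%. With DKI 29 had none, 4.34% beside 10.9%. With meclizine 5 had none, 0.749% beside 3.56%. With crossed starts counted as pairs the losses were 7.17%, 5.47%, 4.43% and 0.66% in the same order, so low losses were not particular to uncrossed pairs. These comparisons share the Q111SST list, the compound lists differ in size, and the strength of the Q111SST peaks was not matched.

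**Figure D5:**
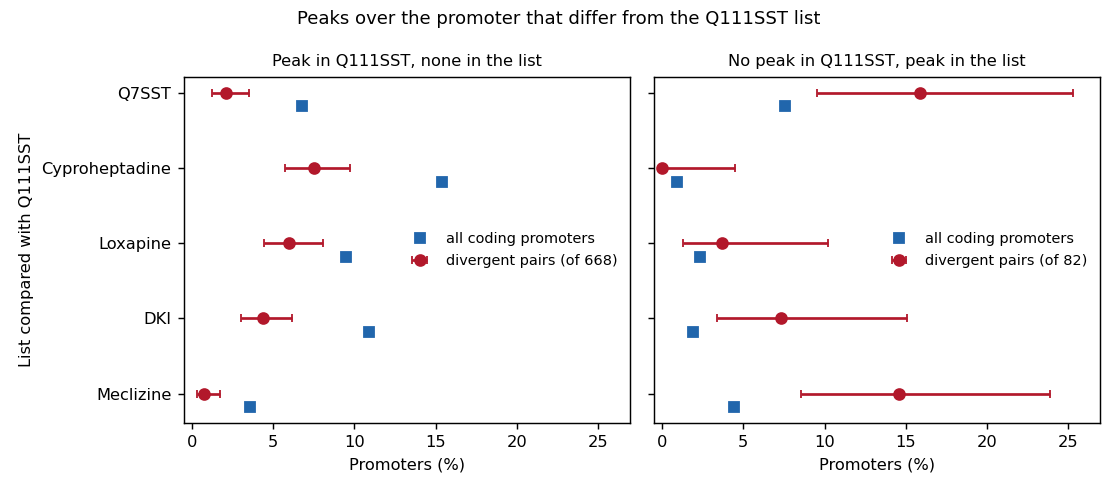
Share of promoters (%) with a peak in Q111SST and none in the list named, on the left, and the reverse, on the right, for divergent pairs with 95% Wilson intervals and for all coding promoters. Losses at pairs run from 0.749% with meclizine to 7.49% with cyproheptadine, and each is below the value for all coding promoters.

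Gains were few in number. Of the 82 pairs without a peak in Q111SST, 0 had one with cyproheptadine (interval up to 4.48%), beside 0.906% of all coding promoters. With loxapine 3 had one, 3.66% (1.25% to 10.2%) beside 2.31%. With DKI 6 had one, 7.32% (3.4% to 15.1%) beside 1.91%, and all 6 were gaps in Q111SST, beside 20.3% of other promoters that gained a peak. With meclizine 12 had one, 14.6% (8.57% to 23.9%) beside 4.44%, and 10 of these (83.3%) were gaps in Q111SST, beside 25% of other promoters that gained one. Atm/Npat was one of the 10. Counting a peak within 1 kb of either start, a definition made after the lists had been examined, the gains were 1 of 38 pairs, 2.63% (0.466% to 13.5%), with DKI, beside 0.582% of all coding promoters, and 0 of 38 (interval up to 9.18%) with meclizine, beside 2.19%. With cyproheptadine and with loxapine they were 1 of 38 each, beside 0.612% and 2.16%.

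Where a peak over the interval was listed in Q111SST and not with a compound, most pairs still had peaks on both sides. A gap stood in the compound list at 31 of the 50 losses with cyproheptadine (62%, interval 48.2% to 74.1%), 29 of 40 for loxapine (72.5%, 57.2% to 83.9%), 18 of 29 (62.1%, 44% to 77.3%) for DKI and 3 of 5 for meclizine. At other coding promoters that lost their peak the share with a gap was 18% (16% to 20.1%), 31.9% (28.8% to 35.1%), 19.3% (17% to 21.9%) and 12% in the same order. The peaks that were lost had a median percentile in Q111SST of 77.8, 83.5 and 77.6 with cyproheptadine, loxapine and DKI at pairs, and 68.0, 73.6 and 64.7 at other promoters. Losses without a peak within 1 kb on either side were 7, 4, 4 and 1 pairs.

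Counting a pair as covered when a peak lay over it or within 1 kb of either start, a definition also made after the lists had been examined, 702 of the 750 pairs were covered in all 6 lists. The share covered per list was then 94% to 95.3% at pairs, and 48.3% to 53.0% at other promoters. Of the 91 pairs with a peak over the interval in 1 to 5 lists, 55 had either such a peak or a gap in each of the 6. The same count was not made for other promoters, so it does not set pairs apart from them.

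Of the 668 pairs marked in Q111SST, 4 were marked in no list from compound-treated cells, which is 0.599% (0.233% to 1.53%) beside 1.8% of all coding promoters. Of the 82 unmarked in Q111SST, 0 were marked in all compound lists (interval up to 4.48%), beside 0.26%. The 4 pairs were Smim14/Ube2k and Wrn/Purg, described above, and Sgce/Peg10 and Asphd1/Sez6l2. Sgce/Peg10, an imprinted pair expressed from the paternal allele, had covering peaks in Q7SST and Q111SST at percentiles of 58.49 and 59.61. It had a peak on 1 side with cyproheptadine, loxapine and DKI and a break of 1075 bp with meclizine. Asphd1/Sez6l2 had small peaks between the starts, of 253 bp at percentile 66.39 in Q7SST and 220 bp at 16.82 in Q111SST, and nothing within 1 kb in the compound lists.

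At pairs with a peak in both lists, percentiles were set beside those in Q111SST. Each percentile is a rank within a list of its own length, 30758 peaks for DKI and 33721 for cyproheptadine against 40406 in Q111SST and 45564 for loxapine, so a difference between lists is not a change in signal. The median difference in percentile at pairs was -0.871, -3.09, -0.686, -4.43 and -1.27 for Q7SST, cyproheptadine, loxapine, DKI and meclizine, and at other promoters -1.03, -4.52, -0.806, -7.08 and -1.54. The median ratio of widths at pairs was 0.839 with DKI, where 20 of 639 pairs (3.13%) were wider, and 1.01 with loxapine, where 339 of 628 (54%) were. At other promoters those ratios were 0.844 and 0.995, and 6.86% and 46.9% were wider.

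Pairs without a peak were of different kinds. Of the 61 in no list, 15 were gaps in all 6, and 33 had no peak within 1 kb in any list. For these 33 the nearest peak in Q111SST was a median of 13681 bp away, and at 6 of them (18.2%) it lay within 5 kb. Best1/Rab3il1, with a chloride channel of the retinal pigment epithelium and a CpG ratio of 0.0532, had its nearest peak 10089 bp away in Q111SST. Others, named after their values were seen, were Klc3/Ckm with the creatine kinase of muscle, Kirrel2/Nphs1 with nephrin of the kidney filter, and Pecam1/Milr1 with an adhesion molecule of endothelium. The 33 also held pairs with a widely expressed gene, such as Slc27a5/Trim28 and Ccnt1/4930415O20Rik, with their nearest peaks 9889 and 2007 bp away in Q111SST. How many of the 33 hold genes of other tissues was not counted. At Rnf151/Rps2 a peak lay on 1 side in 4 lists and none covered the interval.

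Listed genes of DNA repair, and genes with symbols of mitochondrial ribosomal proteins or of NADH dehydrogenase, lay in pairs more often than coding genes as a whole, though they are few of the 1482 genes in pairs. Of 61 DNA repair and checkpoint genes listed, 20 were in pairs, which is 32.8% (22.3% to 45.3%) beside 6.76% of all coding genes, and 16 of the 20 (80%) were in pairs marked in all 6 lists, beside 79.7% of all genes in pairs. Of the 41 repair genes outside pairs 34 (82.9%) were marked in all 6 lists, beside 32.6% of all coding genes outside pairs. Genes of mitochondrial ribosomal proteins were in pairs in 18 of 78 cases, 23.1% (15.1% to 33.6%), and those of NADH dehydrogenase and its assembly factors in 13 of 46, 28.3% (17.3% to 42.5%), and all 18 and all 13 were marked in all 6 lists. Outside pairs 50 of 60 (83.3%) and 28 of 33 (84.8%) of these genes were, beside the same 32.6%.

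Among the repair pairs, Toe1/Mutyh, with the glycosylase that removes adenine opposite oxidised guanine, had percentiles of 98.46 to 99.48. Ccnb1ip1/Parp2 had 96.56 to 99.53 and Hscb/Chek2, with a checkpoint kinase, 92.79 to 98.50. Aimp2/Pms2 had 88.83 to 95.04, Emc3/Fancd2 85.55 to 94.04, Palb2/Dctn5 87.85 to 93.71, Osgep/Apex1 82.16 to 91.69 and Rpa1/Smyd4 82.36 to 89.67. The subunit gene Rpa3 was in a pair with Umad1 and in another with Gm45062, under the same peak at 75.97 to 90.03. Polh/Xpo5 had 72.63 to 87.75, Xpc/Lsm3 62.02 to 81.30, Lig4/Abhd13 59.09 to 80.05 and Xrcc3/Zfyve21 51.70 to 74.30. Each of these had 1 peak over both starts in all 6 lists. Pinlyp/Xrcc1 and Rad51c/Tex14 had a peak on 1 side only in all 6.

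Genes of the histone clusters had the largest share in pairs of the families counted, 27 of 67 (40.3%), of which 15 (55.6%) were in pairs marked in all 6 lists, beside 79.7% of all genes in pairs and 26 of 40 (65%) histone genes outside pairs. Their copies are near-identical, so how reads were divided between them is uncertain. Olfactory receptors were in pairs in 0 of 1134 cases (interval up to 0.338%), genes with a vomeronasal receptor symbol in 1 of 330, beside 6.76% of all coding genes. Zinc finger genes of the Zfp series were in pairs in 20 of 394 cases, 5.08%, with an interval of 3.31% to 7.71% that holds the 6.76%. So do the intervals of genes with Rpl or Rps symbols, 10 of 98 or 10.2% (5.64% to 17.8%), and with Slc symbols, 17 of 371 or 4.58% (2.88% to 7.22%). Genes with proteasome subunit symbols were in pairs in 6 of 40 cases, 15% (7.06% to 29.1%).

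The sequence around the midpoint of the pairs was compared with that of other coding promoters in windows of 300 bases, counting a motif on either strand. TATAAA was found in 4.4% of pairs (3.15% to 6.11%), 12.4% of other promoters and 12.1% of all coding promoters. The ETS site CCGGAAG was found in 28% of pairs (24.9% to 31.3%), 10% of others and 10.7% of all, and the YY1 motif AAGATGGC in 8.4% (6.62% to 10.6%), 2.87% and 3.06%. Among other promoters marked in all 6 lists the shares were 6.39% for TATAAA, 22% (21% to 23%) for CCGGAAG and 5.25% (4.74% to 5.81%) for AAGATGGC, closer to those of the pairs. Among CpG-rich others they were 5.11%, 19.6% and 4.89%. For every motif, the window of a pair held both starts where these were at most 300 bp apart, while that of another promoter was set by a single start. This was not matched. A match describes these letters in the window and does not show a bound site.

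For the other motifs the contrast depended on the promoters compared. GGGCGG, the GC box, was in 67.9% of pairs, 42.4% of others and 43.3% of all, but in 64.3% of others marked in all 6 lists and in 79.6% of CpG-rich others. CCAAT was in 44.9% of pairs, 37.8% of others, 38% of all, 40.8% of others marked in all 6 lists and 33.2% of CpG-rich others. TGACGT, the core of the cyclic AMP response element, was in 16% of pairs, 7.98% of others, 8.27% of all, 12.6% of others marked in all 6 lists and 14.7% of CpG-rich others. CACGTG, the E-box, was in 10.7% of pairs, 7.43% of others and 7.54% of all, but in 10.5% of others marked in all 6 lists and 11.8% of CpG-rich others. The NRF1 motif GCATGCGC was in 6.53% of pairs, 3.55% of others and 3.65% of all, but in 6.2% of others marked in all 6 lists and 7.72% of CpG-rich others. ACTACAAT, part of the ZNF143 site, was in 1.07% of pairs, 0.783% of others, 0.793% of all, 1.25% of others marked in all 6 lists and 0.497% of CpG-rich others. A window could hold several motifs, and matches of different motifs could share letters.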

How the data were processed

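The authors sequenced H3K4me3 ChIP-Seq libraries from crosslinked chromatin digested with micrococcal nuclease and deposited 1 peak list per condition. The submitters' processing notes name Trimmomatic 0.36, Bowtie2, SAMtools 1.3, MACS2 and mm10, without thresholds, input control or how replicates, if there were any, entered a list. The score of a deposited peak is a whole number whose scale is not given in the sources used here. Positions are 1-based on GRCm38, whose chromosome lengths held all peaks (0 of 21 exceeded).

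Gene starts were the outermost annotated 5′ ends of GENCODE vM21 genes. A promoter was marked when a peak overlapped its interval by at least 1 bp, the strongest peak counting. Scores were ranked within a list only. Shares carry 95% Wilson intervals and medians 95% binomial order intervals. The range beside a difference of medians joins opposite ends of the separate intervals. Pairing and overlap were tested on simulated data. Work was done in Python 3.11.15 with pysam 0.24.0, pandas 2.3.3, numpy 2.4.6, scipy 1.17.1 and matplotlib 3.10.9.

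Named pairs were textbook pairs, the 5 strongest, the 5 widest, up to 5 per direction that differed between vehicle lists or between Q111SST and all compounds, up to 5 marked at 1 start in all 6 lists, up to 5 in no list by smallest spacing, and repair gene pairs. Pairs with both genes known by predicted names only were not named, and 2 other pairs that this rule gave are not reported here. The members, gene lists and motifs were chosen with earlier results of these data known. Alternatives were a stricter score, equal list sizes, merged peaks, other spacing and overlap rules and other comparison promoters.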

Additional observations from a re-analysis of the deposited data

How the results depend on the processing

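With 1 list per condition, no value here has a replicate error. No paired analysis was possible because the labels number no replicates and no test was made. A peak missing from a list can reflect fewer reads or lower enrichment there. The share marked in all 6 lists stayed higher at pairs than at other promoters under each alternative run for it. With a score threshold at the median of all 6 lists together, 47, the share marked in all 6 lists was 74% at pairs and 27.2% at other promoters, and the losses were 10.4% with cyproheptadine and 8.7% with DKI, beside 20.3% and 17.2% of all coding promoters. Merging peaks within 1 kb gave 84.7% and 34%, and losses of 5.12% with cyproheptadine, 3.65% with loxapine and 2.49% with DKI, beside 14.2%, 8.05% and 9.75%. Asking the peak to cover 50% of the interval gave 76.4% and 30.1%. With starts at most 300 bp apart, 1 peak over both starts was found at 98.7% of marked pairs in Q111SST. The share of other promoters marked in all 6 lists was 30.6% with crossed starts counted as pairs, 31.4% by the start base alone, 58.5% for CpG-rich promoters and 31.9% without those with a divergent long noncoding RNA. Against CpG-rich promoters the ratio of median widths in Q111SST fell to 1.07 from 1.2. Counting a peak within 1 kb of either start, chosen after seeing the data, gave 93.6% and 46.1%. Losses were then 0.281%, 1.12%, 0.702%, 0.843% and 0.281% of 712 pairs for Q7SST, cyproheptadine, loxapine, DKI and meclizine, beside 4.12%, 6.38%, 2.45%, 5.6% and 1.58% of all coding promoters. Gains were 13.2%, 2.63%, 2.63%, 2.63% and 0% of 38 pairs in the same order, beside 7.87%, 0.612%, 2.16%, 0.582% and 2.19%. With lists of equal size each of the 15 values recomputed stayed within the interval or range of its reported value, and gains in Q7SST went from 15.9% to 18.6%.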
